A study of Homo sapiens with 12 samples.

Results

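The mRNAs of 4 growth factor receptors (EGFR, ERBB2, ERBB3 and MET), 5 ligands of EGFR (AREG, EREG, HBEGF, TGFA and BTC) and the receptor inhibitor ERRFI1 were followed across 12 RNA-seq libraries of colon cancer cells. These 10 genes were taken by name from the 60623 genes counted, and not by their values. Gene expression had been measured after forced expression of HKDC1, a hexokinase, to look for changes that could bear on proliferation. The groups, with 3 libraries each, were SW480 with pCMV6-HKDC1, SW480 with pCMV6-Entry, COLO320DM with pCMV6-HKDC1 and COLO320DM with pCMV6-Entry. The first plasmid carries HKDC1 behind the CMV promoter, the second is the empty vector, and every culture received 10 µg of plasmid with Lipofectamine 2000 for 24 h. Each line is a single established cell line, so a difference between them is a difference between 2 cultures of tumour cells and not between tumour types. The labels do not say whether replicates were separate transfections, so the p-values measure only the spread between these libraries.

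EGFR, ERBB2 and ERBB3 are cell-surface tyrosine kinases that act as pairs. Amphiregulin (AREG), epiregulin (EREG), heparin-binding EGF-like growth factor (HBEGF), transforming growth factor alpha (TGFA) and betacellulin (BTC) are made as membrane proteins, are cut free by proteases and bind EGFR, and some of them also bind ERBB4. ERBB2 binds no known ligand, ERBB3 has little kinase activity of its own and binds neuregulins, and MET is the receptor of hepatocyte growth factor. ERRFI1 (MIG6) binds the EGFR kinase domain and switches it off, and its own transcription rises with EGFR signalling. In the colon these receptors drive epithelial renewal through the ERK and PI3K-AKT cascades, and EGFR antibodies are used against colorectal cancer, where AREG and EREG mRNA have been studied as markers of response.

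Library totals ranged from 33790733 to 45451279 counts. Expression is given as CPM, counts scaled to library size with TMM factors, and levels of different genes are compared per exonic length, as RPKM. HKDC1 itself reached 12231 to 14308 CPM in SW480 with the HKDC1 plasmid, against 34.1 to 38.4 CPM with empty vector. In COLO320DM it reached 6580 to 9640 CPM with the HKDC1 plasmid, against 0 to 0.0238 CPM with empty vector. Replicate 1 of every group stood apart from replicates 2 and 3 in both plasmid groups of each line, and results that rest on it are given with and without it. Of 7 epithelial markers, EPCAM averaged 517 CPM in SW480 and 1.81 CPM in COLO320DM with empty vector, and KRT19 averaged 429 and 0.0787 CPM in the same order of lines. CDX2, an intestinal transcription factor, averaged 13.3 CPM in SW480 and 1451 CPM in COLO320DM with empty vector. The summed epithelial markers spanned 6583 to 9490 CPM in SW480 and 1577 to 1790 CPM in COLO320DM. Of 6 leukocyte markers, PTPRC averaged 0.0220 CPM in SW480 and 36.6 CPM in COLO320DM with empty vector, and the 6 summed to 1.35 to 2.51 CPM in SW480 and 32.0 to 42.1 CPM in COLO320DM. Of the 5 leukocyte markers tested, 2 were higher in SW480 with empty vector and 2 were lower; CD14 went the other way from PTPRC, with 0.727 CPM in SW480 and 0.126 CPM in COLO320DM, and so did ITGAM, with 0.962 and 0.235 CPM. The 6 fibroblast markers summed to 18.04 to 22.1 CPM in SW480 and 39.9 to 64.7 CPM in COLO320DM, where COL3A1 was the main one, and the 7 neuroendocrine markers to 3.58 to 7.38 and 2.71 to 5.67 CPM. LUM, a fibroblast marker, ran against the fibroblast sum, with 15.6 CPM in SW480 and 0.602 CPM in COLO320DM with empty vector. Of the 4 neuroendocrine markers tested, 2 were higher in SW480 with empty vector, 1 was lower and 1 did not pass, with log2 fold changes from −2.08 to 2.38. The part of these differences in the results below was not tested.

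In the deposited GRCh38 coordinates, EREG (ENSG00000124882, chr4:74365145-74388749) and AREG (ENSG00000109321, chr4:74445136-74455005) lie 56386 bases apart on the plus strand of chromosome 4. BTC (ENSG00000174808, chr4:74744759-74794523) lies 289753 bases beyond AREG on the minus strand. HBEGF (ENSG00000113070) occupies chr5:140332843-140346603 and TGFA (ENSG00000163235) occupies chr2:70447284-70554193, both on the minus strand. EGFR (ENSG00000146648) lies at chr7:55019017-55211628, MET (ENSG00000105976) at chr7:116672196-116798386, ERBB2 (ENSG00000141736) at chr17:39687914-39730426 and ERBB3 (ENSG00000065361) at chr12:56076799-56103505, all on the plus strand, and ERRFI1 (ENSG00000116285) at chr1:8004404-8026309 on the minus strand. The counts are over the exons of each gene, UTRs included.

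Promoter sequences, from RefSeq on GRCh38.p14, were found for 9 of the 10 genes. They are shown for 4 ligands: AREG and EREG, which had the widest gap between the lines, BTC, which lies near them on chromosome 4, and HBEGF, the member called for the HKDC1 plasmid with the replicate number as a block. Each run is the 250 bases before the transcript start, 5′ to 3′ on the gene's own strand. Capitals mark exact matches on either strand to the cAMP response element TGACGTCA, the AP-1 element TGANTCA, the TATA box TATAAA and the GC box GGGCGG, which reads CCGCCC on the other strand.
AREG, chr4:74444886-74445135, plus strand: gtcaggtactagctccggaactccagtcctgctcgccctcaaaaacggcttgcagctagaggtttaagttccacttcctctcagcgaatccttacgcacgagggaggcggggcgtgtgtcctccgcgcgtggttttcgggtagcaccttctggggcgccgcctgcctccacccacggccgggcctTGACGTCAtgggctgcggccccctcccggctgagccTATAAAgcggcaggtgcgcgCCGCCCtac
EREG, chr4:74364895-74365144, plus strand: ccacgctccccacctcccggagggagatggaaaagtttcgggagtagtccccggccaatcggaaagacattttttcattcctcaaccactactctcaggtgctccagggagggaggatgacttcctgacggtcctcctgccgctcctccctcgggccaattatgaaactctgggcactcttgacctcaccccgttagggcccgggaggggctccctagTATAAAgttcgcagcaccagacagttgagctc
HBEGF, chr5:140346604-140346853, minus strand: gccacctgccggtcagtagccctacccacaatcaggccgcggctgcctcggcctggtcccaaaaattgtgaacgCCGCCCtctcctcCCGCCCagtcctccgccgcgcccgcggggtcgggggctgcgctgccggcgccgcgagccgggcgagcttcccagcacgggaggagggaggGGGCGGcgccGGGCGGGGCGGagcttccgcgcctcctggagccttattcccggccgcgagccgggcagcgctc
BTC, chr4:74794524-74794773, minus strand: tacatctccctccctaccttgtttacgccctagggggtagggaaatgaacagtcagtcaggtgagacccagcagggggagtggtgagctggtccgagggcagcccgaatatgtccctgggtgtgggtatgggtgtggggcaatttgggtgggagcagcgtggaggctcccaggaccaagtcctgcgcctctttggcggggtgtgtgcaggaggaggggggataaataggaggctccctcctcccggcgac
AREG had a cAMP response element 65 to 58 bases before the start, a TATA box 29 to 24 bases before it and a GC box 9 to 4 bases before it. EREG had a TATA box 32 to 27 bases before its start and none of the other motifs. HBEGF had 5 GC boxes, of which the last 2 overlap in 1 run of capitals, and no TATA box, and BTC had no match to any of the 4 motifs. Over the 35116 promoters of the same length in the table, 1.65% held the cAMP response element, 6.57% the AP-1 element, 10.7% the TATA box and 42.6% the GC box. A match is a string of letters, and says nothing about binding in these cells.

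Most of these genes differed between the lines, with MET as the exception when all libraries were used. With empty vector, 9 of the 10 members were higher in SW480 than in COLO320DM at an adjusted p under 0.05, in a comparison in which 71.6% of the 23684 genes tested were called and 37.3% were called higher. With the HKDC1 plasmid 9 of the 10 were again higher, where 70.8% of genes were called and 37.4% were called higher. The libraries of the lines did not overlap for the same 9 genes with either plasmid, as for 73.2% of all tested genes with empty vector and 75.2% with the HKDC1 plasmid. AREG, EREG and BTC passed the filter on low counts only through SW480, so these 3 had to differ, and the count over all members is a description.

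**Figure D1:**
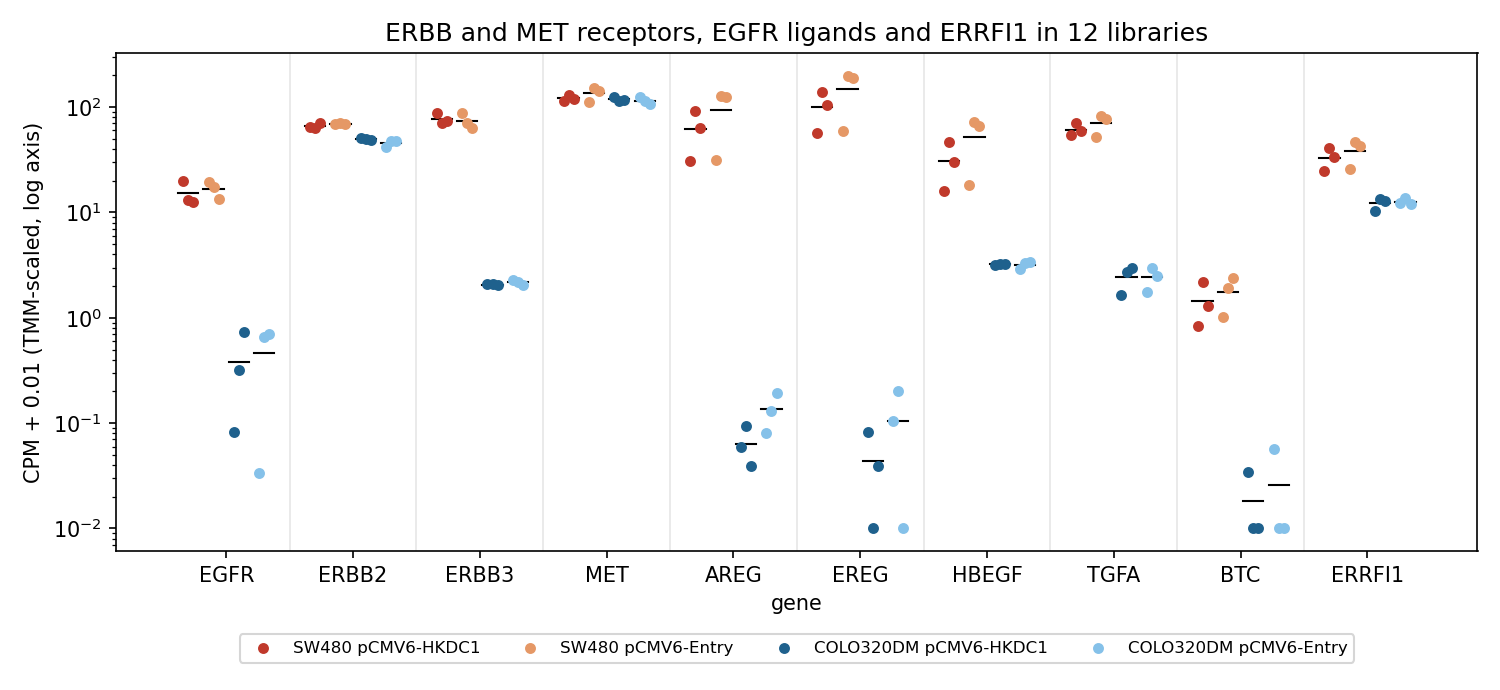
TMM-scaled CPM plus 0.01 on a log axis for the 10 genes in each of the 12 libraries, with 1 point per library (replicates 1 to 3 from left to right within a group) and a black bar at the group mean. MET and ERBB2 lie at similar levels in all 4 groups, whereas AREG and EREG lie between 31.0 and 199 CPM in SW480 and at or under 0.191 CPM in COLO320DM.

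AREG and EREG were the members with the widest gap between the lines. AREG had 1208, 4655 and 5632 counts in the 3 SW480 libraries with empty vector, against 3, 5 and 8 counts in COLO320DM. The ratio of the scaled sums was 759, with a 95% counting interval of 467 to 1329. EREG had 2310, 7299 and 8676 counts in SW480 with empty vector, against 4, 8 and 0 counts in COLO320DM, a ratio of 1611 (95% counting interval 922 to 3118). The edgeR log2 difference of EREG, 10.59, was 11.55 without replicate 2 of COLO320DM with empty vector and 10.01 without replicate 3. For both genes the lowest SW480 library held at least 1208 counts and the highest COLO320DM library held 8. The intervals cover counting error only. BTC, a ligand of EGFR and ERBB4, was scarce in both lines, with 39, 70 and 108 counts in SW480 and 2, 0 and 0 counts in COLO320DM with empty vector (ratio 115, 95% counting interval 31.4 to 953). Both COLO320DM counts of BTC came from replicate 1, and the fitted log2 difference of 6.55 was 9.11 without that library, when BTC stood at 0 counts there.

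HBEGF and TGFA were expressed in both lines. HBEGF had 18.3, 72.7 and 66.1 CPM in SW480 with empty vector, against 2.90, 3.29 and 3.38 CPM in COLO320DM. The groups did not overlap, and HBEGF was 16.4-fold higher in SW480 (edgeR log2 fold change 4.04, SE 0.48, adjusted p = 5.45e-06). TGFA had 52.4, 82.5 and 77.6 CPM in SW480 with empty vector, against 1.74, 2.98 and 2.50 CPM in COLO320DM, which was 29.4-fold higher in SW480 (edgeR log2 fold change 4.88, SE 0.26, adjusted p = 1.54e-09).

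The receptors fell into a pair that was close to restricted to SW480 and a pair shared by the lines. EGFR had 19.6, 17.4 and 13.5 CPM in SW480 with empty vector, against 0.0236, 0.643 and 0.694 CPM in COLO320DM, where these are 1, 27 and 30 counts. EGFR was 36.8-fold higher in SW480 (edgeR log2 fold change 5.20, SE 0.57, adjusted p = 2.30e-06), with every SW480 library above every COLO320DM library. Without replicate 1 of every group the log2 difference of EGFR was 4.53. ERBB3 had 88.6, 70.2 and 63.5 CPM in SW480 with empty vector, against 2.26, 2.17 and 2.06 CPM in COLO320DM, and was 34.2-fold higher in SW480 (edgeR log2 fold change 5.10, SE 0.15, adjusted p = 6.94e-12). ERBB3 shares 31 exonic bases with ENSG00000257411, a gene on the same strand that held 6438 to 8375 counts in COLO320DM, so some of the 70 to 96 counts of ERBB3 there could belong to that gene.

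ERBB2 and MET, in contrast, were present at similar levels in both lines. ERBB2 had 68.9, 70.6 and 69.3 CPM in SW480 with empty vector, against 41.8, 47.2 and 47.9 CPM in COLO320DM. The groups did not overlap, and the 1.53-fold difference passed the test (edgeR log2 fold change 0.61, SE 0.08, adjusted p = 1.45e-05). ERBB2 overlaps MIEN1 on the opposite strand by 1401 exonic bases and PGAP3 by 368 bases, and reads of such antisense partners cannot be told apart where the counting did not use strand. MET had 111, 152 and 143 CPM in SW480 with empty vector, against 125, 113 and 106 CPM in COLO320DM. The MET groups overlapped, and the log2 fold change of 0.24 (SE 0.11) did not pass the test (edgeR adjusted p = 0.0746). MET passed it when replicate 1 of SW480 with empty vector was left out (log2 fold change 0.37, edgeR adjusted p = 0.00329) or replicate 1 of COLO320DM with empty vector (0.30, edgeR adjusted p = 0.0458). Without replicate 1 of every group, a fit chosen after seeing the data, the value of MET was 0.44 (edgeR adjusted p = 1.37e-07).

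ERRFI1, the feedback inhibitor, was expressed in both lines and higher in SW480. It had 25.8, 46.3 and 42.8 CPM in SW480 with empty vector, against 12.2, 13.8 and 12.01 CPM in COLO320DM. This 3.02-fold difference passed the test (edgeR log2 fold change 1.60, SE 0.22, adjusted p = 1.90e-05), and the groups did not overlap. With the HKDC1 plasmid the line difference of ERRFI1 was 1.43 on the log2 scale (SE 0.22), that of HBEGF 3.27 (SE 0.47) and that of EGFR 5.40 (SE 0.59).

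Per length, the order of the receptors was fixed within a line and differed between the lines. In all 6 SW480 libraries it was MET, ERBB3, ERBB2 and EGFR from high to low, and in all 6 COLO320DM libraries MET, ERBB2, ERBB3 and EGFR. In SW480 with empty vector MET averaged 18.7 ± 2.96 RPKM, ERBB3 8.20 ± 1.44, ERBB2 6.74 ± 0.0887 and EGFR 1.34 ± 0.246 RPKM (SD, n = 3 each). ERBB3 and ERBB2 were neighbours whose mean levels lay within about 1 SD of ERBB3. In COLO320DM with empty vector MET averaged 15.8 ± 1.31 RPKM, ERBB2 4.42 ± 0.325, ERBB3 0.239 ± 0.0112 and EGFR 0.0362 ± 0.0298 RPKM (SD, n = 3 each).

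The ligand with the highest level per length was AREG in all 6 SW480 libraries and HBEGF in all 6 COLO320DM libraries. In SW480 with empty vector AREG averaged 57.2 ± 33.1 RPKM, EREG 26.2 ± 13.6, HBEGF 17.5 ± 9.93, TGFA 14.4 ± 3.29 and BTC 0.665 ± 0.261 RPKM (SD, n = 3 each). The middle of this order was not stable: TGFA stood second in replicate 1 of both plasmid groups, and EREG stood second in replicates 2 and 3. With empty vector, mean levels of neighbours from AREG to TGFA lay within 1 SD of the higher one. AREG nevertheless stood first within every SW480 library, and the order was not tested. In COLO320DM with empty vector HBEGF averaged 1.07 ± 0.0854 RPKM and TGFA 0.490 ± 0.127 RPKM (SD, n = 3 each), and AREG, EREG and BTC were each under 0.1 RPKM.

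The other genes of the pathway, taken from lists of receptors, processing enzymes, inhibitors, kinases and response genes, did not all follow the members. MST1R, NRG2, ST14, HGFAC, UBASH3B and DUSP4 passed the filter on low counts only through SW480, and EGF only through COLO320DM, so these 7 had to differ and the counts by list are descriptions, to be read beside the 37.3% of all tested genes called higher. Of 6 tested among the 10 other receptors and ligands, 2 were higher in SW480 with empty vector, 3 were lower and 1 did not pass, with a median log2 fold change of −0.42, against 0.04 over all tested genes. MST1R, the MET-related receptor, had 6530 summed counts in SW480 and 0 in COLO320DM with empty vector. The difference was 2301-fold with the COLO320DM sum set to the floor of 3 counts, and the lower limit of its 95% counting interval was 1871. NRG2, a neuregulin, had 149 summed counts in SW480 and 1 in COLO320DM with empty vector (ratio 157, 95% counting interval 27.8 to 6262). ERBB4, the fourth ERBB receptor, and NRG4, a ligand of ERBB4, were lower in SW480: ERBB4 averaged 0.537 CPM in SW480 and 1.21 CPM in COLO320DM (edgeR log2 fold change −1.17, adjusted p = 0.000671), and NRG4 averaged 5.47 CPM in SW480 and 11.2 CPM in COLO320DM (−1.04, edgeR adjusted p = 2.55e-06). HGF, the ligand of MET, and NRG3 had 0 counts in every library.

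Of 9 genes of ligand shedding and activation, 7 were higher in SW480 with empty vector, 0 were lower and 2 did not pass, with a median log2 fold change of 1.88. With the replicate number as a block those 2, ADAM10 and RHBDF1, were called lower. So were RNF41 in the attenuation list and JUN among the response genes below, and the adaptor SHC1 was called higher. In comparisons between the lines this block gave each number the same effect in both lines. Whether the numbers pair libraries across lines was not checked. The largest differences were in ST14 (matriptase, a protease that activates pro-HGF), SPINT2 and SPINT1 (inhibitors of such proteases). ST14 had 14642 summed counts in SW480 and 5 in COLO320DM with empty vector, a ratio of 3095 (95% counting interval 1326 to 9534). SPINT2 averaged 282 CPM in SW480 and 1.86 CPM in COLO320DM, and SPINT1 averaged 51.8 and 0.502 CPM in the same order of lines.

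Of 13 tested genes listed under receptor attenuation, 4 were higher in SW480 with empty vector, 6 were lower and 3 did not pass, with a median log2 fold change of −0.25. Genes of this list, such as UBASH3B and LRIG3, need not all weaken the receptors, so these counts do not measure attenuation. The higher genes with the largest changes were UBASH3B (10.8 CPM in SW480 and 0.0313 CPM in COLO320DM), the phosphatase gene PTPN2 (edgeR log2 fold change 1.04, adjusted p = 5.62e-06) and CBL, a ubiquitin ligase of EGFR (0.42, adjusted p = 0.00240). The lower ones were LRIG3 (−2.47, edgeR adjusted p = 5.40e-07), CBLB, a relative of CBL (−1.94, adjusted p = 1.80e-08), and the phosphatase gene PTPN1 (−1.37, adjusted p = 4.61e-09). Of 26 adaptors and downstream kinases, 5 were higher, 11 were lower and 10 did not pass, with a median of −0.10. MAP2K1 (MEK1; log2 fold change 1.20) and AKT2 (0.75) were higher in SW480, and the adaptors GAB1 (−2.93) and GAB2 (−0.91) and the kinase SRC (−1.01) were lower.

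Of 17 EGFR and ERK response genes, 15 were higher in SW480 with empty vector, 1 was lower and 1 did not pass, with a median log2 fold change of 4.47. DUSP4, a phosphatase that dampens ERK, had 12499 summed counts in SW480 and 5 in COLO320DM (ratio 2642, 95% counting interval 1132 to 8139). FOSL1, a subunit of the AP-1 transcription factor, averaged 7.39 higher on the log2 scale in SW480 (SE 0.21, edgeR adjusted p = 5.77e-12), and EGR1, an immediate early transcription factor, 7.16 higher (SE 0.64, edgeR adjusted p = 3.38e-07). MYC was the 1 lower gene (−1.87, SE 0.09, edgeR adjusted p = 8.33e-10). It is known to be amplified in COLO320DM, but copy number was not measured here and its part in this difference was not tested.

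**Figure D2:**
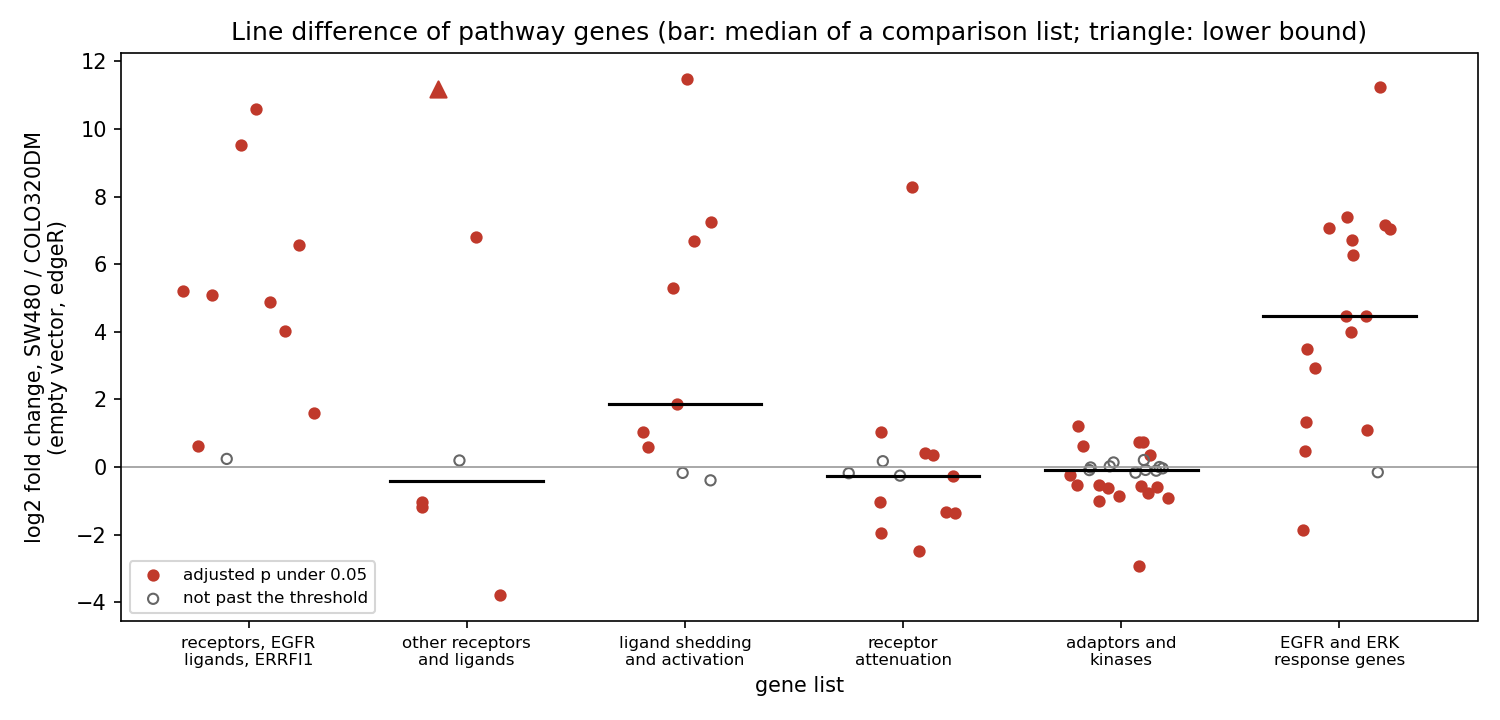
Fitted log2 fold change, SW480 over COLO320DM with empty vector, for each tested gene of the 10 followed genes and of 5 pathway lists, with filled points past an adjusted p of 0.05, open points not past it, and a bar at the median of each pathway list. The triangle is MST1R at the bound of 2301-fold set by the floor of 3 counts, and 15 of the 17 EGFR and ERK response genes lie above 0 and past the threshold. Adaptors and kinases lie on both sides of 0, with 5 of 26 called higher, 11 called lower and 10 not past the threshold.

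The HKDC1 plasmid was compared with empty vector in each line. In SW480, the levels of EGFR ligands depended first on the replicate number. AREG had 31.0, 91.5 and 63.5 CPM in replicates 1, 2 and 3 with the HKDC1 plasmid, against 31.3, 127 and 124 CPM with empty vector. EREG had 56.9, 140 and 106 CPM with the HKDC1 plasmid, against 59.9, 199 and 191 CPM with empty vector. HBEGF had 15.9, 46.4 and 30.3 CPM with the HKDC1 plasmid, against 18.3, 72.7 and 66.1 CPM with empty vector. In all 3 genes replicate 1 was the lowest library of both groups, and in replicates 2 and 3 both HKDC1 libraries lay below both empty-vector libraries. Libraries 2 and 3 of the plasmids were no more alike within a number than across numbers, so the ratios of pairs 2 and 3 below follow the labels' numbers only. The groups overlapped in all 10 members, in a comparison in which 4.45% of all tested genes did not overlap.

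**Figure D3:**
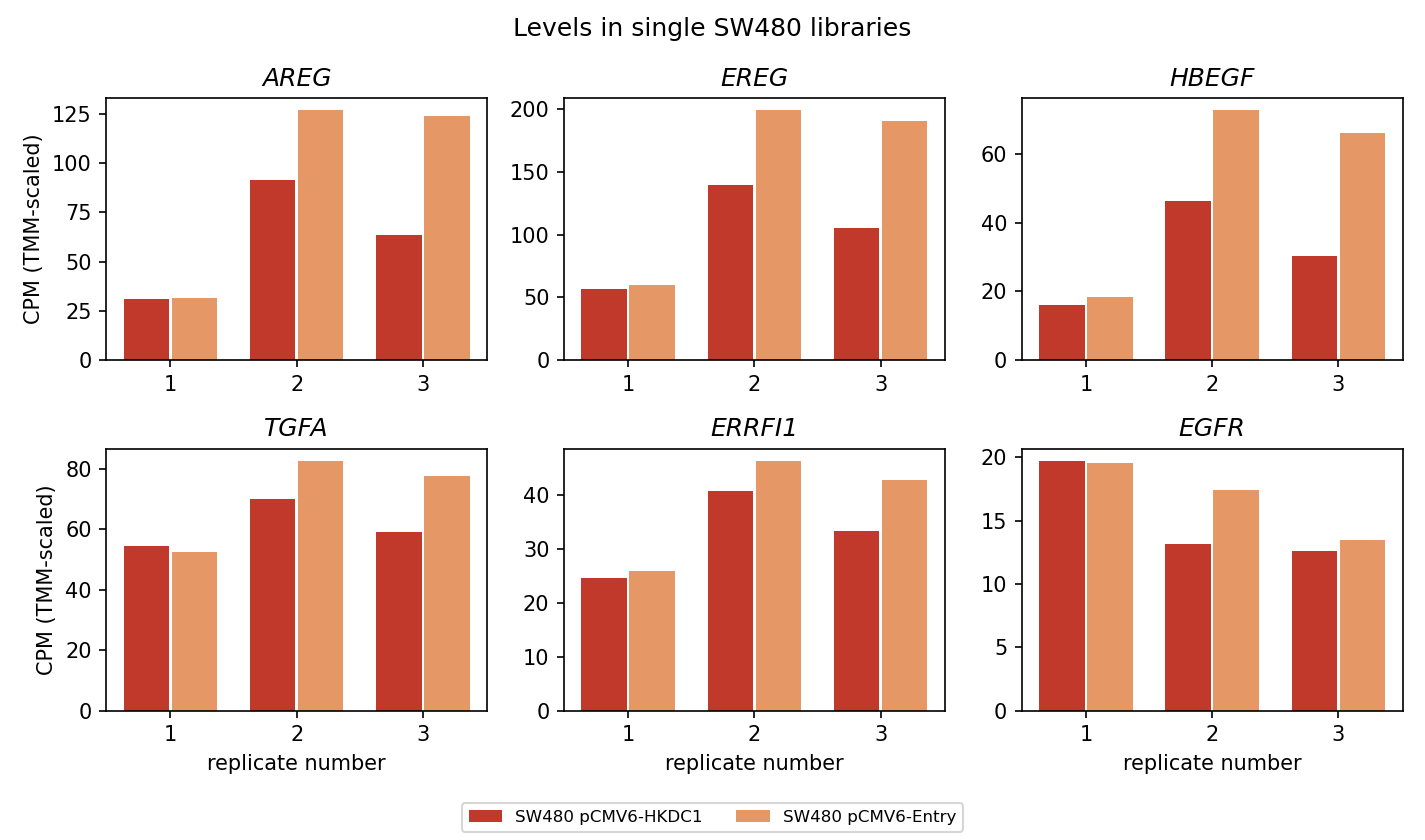
TMM-scaled CPM in the 6 SW480 libraries by replicate number, with HKDC1-plasmid libraries in red and empty-vector libraries in orange. AREG, EREG and HBEGF are lowest in replicate 1 of both groups, where the plasmids are close (AREG 31.0 and 31.3 CPM), and EGFR is highest in replicate 1.

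Without regard to replicate number, 0 of 10 members were called in SW480 by edgeR, in a comparison in which 0.0127% of genes were called. At an unadjusted p under 0.05 there were 0 members, against 1.5% of genes, and 0 members were called by DESeq2 or by limma-voom. The log2 fold change was −0.76 for HBEGF (SE 0.41, edgeR adjusted p = 1.00), −0.60 for AREG (SE 0.43) and −0.57 for EREG (SE 0.39), and smaller than 0.35 in size for the other 7 members. With the replicate number as a block, 1 of 10 members was called, HBEGF, and it was lower with the HKDC1 plasmid. In this fit 0.76% of genes were called and 0.595% were called lower. The log2 fold change of HBEGF was −0.69 (SE 0.12, edgeR adjusted p = 0.0163), a level 0.621 times that with empty vector, and it was lower in 3 of 3 pairs with ratios of 0.869, 0.639 and 0.458.

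The HBEGF call rested on pair 2: without it the value was −0.72 with an edgeR adjusted p of 0.440, without pair 3 it was −0.46 (edgeR adjusted p = 0.0280), and without pair 1 it was −0.90 (edgeR adjusted p = 2.17e-10). With the block, DESeq2 gave −0.67 with an adjusted p of 0.103, and limma-voom −0.73 with an adjusted p of 0.0215.

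The other ligands had values below 0 and did not pass in the blocked fit. AREG had ratios of 0.990, 0.721 and 0.513 in the 3 pairs (log2 fold change −0.51, SE 0.17, edgeR adjusted p = 0.405). EREG had ratios of 0.949, 0.702 and 0.553 (−0.49, SE 0.16, edgeR adjusted p = 0.406). TGFA had ratios of 1.04, 0.849 and 0.762 (−0.19, SE 0.07, edgeR adjusted p = 0.296). Pair 1 thus lay near 1 for AREG, EREG and TGFA, and pairs 2 and 3 lay below it. BTC, with 29, 88 and 45 counts with the HKDC1 plasmid against 39, 70 and 108 counts with empty vector, had no common direction across pairs. ERRFI1 had ratios of 0.955, 0.881 and 0.781 (−0.21, SE 0.08, edgeR adjusted p = 0.271).

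Among the receptors, MET had 115, 130 and 118 CPM in SW480 with the HKDC1 plasmid, against 111, 152 and 143 CPM with empty vector (blocked log2 fold change −0.15, SE 0.06, edgeR adjusted p = 0.351). EGFR had 19.7, 13.2 and 12.6 CPM with the HKDC1 plasmid, against 19.6, 17.4 and 13.5 CPM with empty vector (−0.16, SE 0.10, edgeR adjusted p = 0.643). ERBB2 and ERBB3 had blocked values of −0.07 (SE 0.06) and 0.07 (SE 0.07). In the blocked fit 6 of 10 members (MET, AREG, EREG, TGFA, HBEGF and ERRFI1) had an unadjusted p under 0.05, as had 9.96% of all tested genes.

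Leaving out pair 1 of SW480, whose libraries stood apart, changed the calls. The blocked fit then called 5 of 10 members, all lower with the HKDC1 plasmid, where 2.23% of 24168 genes were called and 1.76% were called lower. These were HBEGF (−0.90, edgeR adjusted p = 2.17e-10), AREG (−0.73, edgeR adjusted p = 3.73e-08), EREG (−0.70, edgeR adjusted p = 2.61e-07), TGFA (−0.33, edgeR adjusted p = 0.0204) and MET (−0.26, edgeR adjusted p = 0.0314). Only pairs 2 and 3 of SW480 entered this fit, and their libraries were no more alike within a number than across numbers. Its p-values therefore rest on a pairing that the libraries do not bear out. HBEGF, AREG and EREG were not called in the fit without the block given below. Without pair 2 the blocked fit called 0 members, where 0.0541% of genes were called, and without pair 3 it called 1, where 0.204% were called. A fit without replicate 1 of every group and without the block, chosen after seeing the data, called 2 members, TGFA (−0.33, edgeR adjusted p = 0.0123) and MET (−0.26, edgeR adjusted p = 0.0124), where 3.03% of genes were called, and gave HBEGF a value of −0.87 (edgeR adjusted p = 0.0798).

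**Figure D4:**
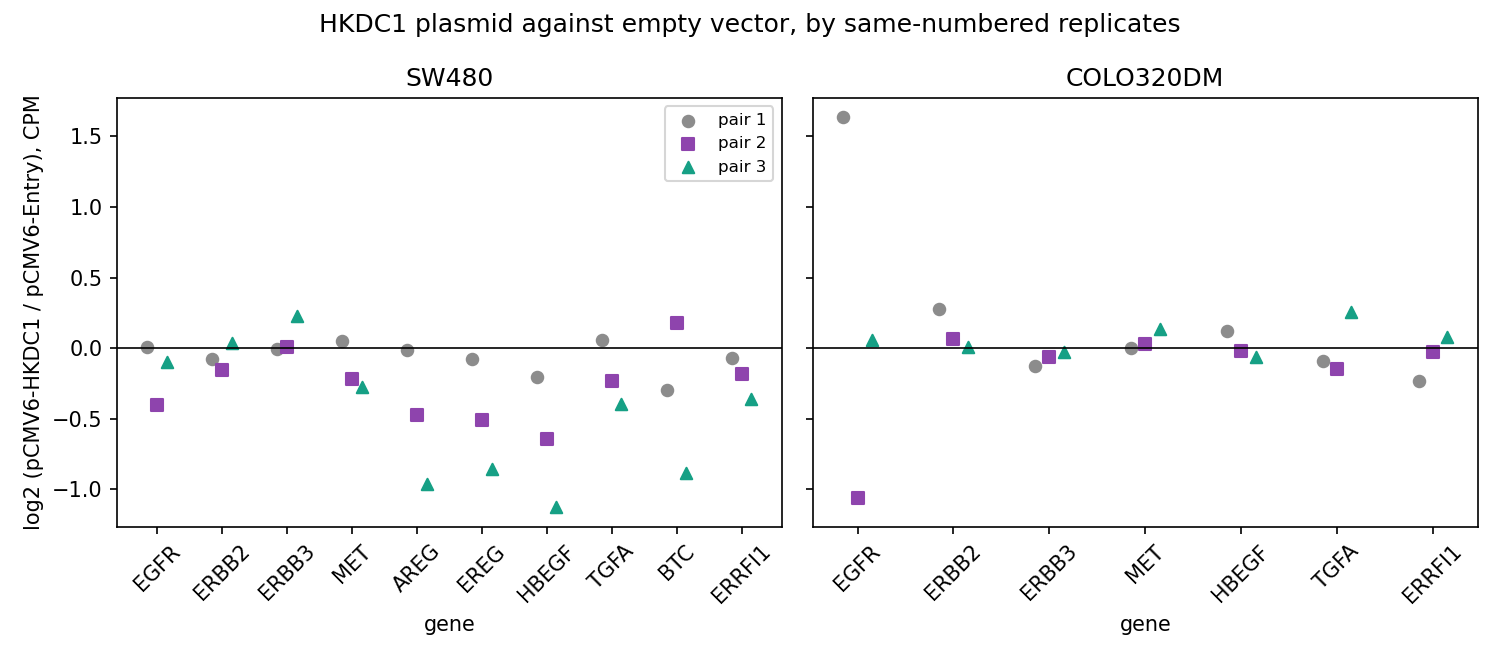
Log2 ratio of CPM, HKDC1 plasmid over empty vector, for each same-numbered pair of libraries, in SW480 (10 genes) and in COLO320DM (7 genes, without AREG, EREG and BTC, which had at most 8 counts there). HBEGF lies below 0 in 3 of 3 pairs of SW480, and the spread of EGFR in COLO320DM rests on 1 to 30 counts per library.

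In COLO320DM the HKDC1 plasmid left no called difference among the members. Without the block 0 of 10 were called, in a comparison in which 0.00844% of genes were called, and with it 0 of 10, where 0.076% were called. At an unadjusted p under 0.05 without the block there were 0 members, against 1.32% of genes, and 0 members were called by DESeq2 or by limma-voom. ERBB2 was the 1 member whose groups did not overlap, as for 7.74% of all tested genes. It had 50.7, 49.4 and 48.2 CPM with the HKDC1 plasmid, against 41.8, 47.2 and 47.9 CPM with empty vector (log2 fold change 0.12, SE 0.08, edgeR adjusted p = 1). HBEGF had 3.15, 3.25 and 3.24 CPM with the HKDC1 plasmid, against 2.90, 3.29 and 3.38 CPM with empty vector, a log2 fold change of 0.01 with a SE of 0.48. TGFA had 1.63, 2.69 and 2.98 CPM with the HKDC1 plasmid, against 1.74, 2.98 and 2.50 CPM with empty vector (0.01, SE 0.26).

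The remaining members of COLO320DM were close between the plasmids or too scarce to compare. MET had 125, 115 and 116 CPM with the HKDC1 plasmid, against 125, 113 and 106 CPM with empty vector (log2 fold change 0.05, SE 0.11). ERBB3 averaged 2.06 ± 0.0269 CPM with the HKDC1 plasmid and 2.16 ± 0.101 CPM with empty vector, and ERRFI1 averaged 12.2 ± 1.64 and 12.7 ± 0.961 CPM in the same order (SD, n = 3 each). EGFR had 3, 11 and 25 counts with the HKDC1 plasmid, against 1, 27 and 30 counts with empty vector. Replicate 1 of EGFR was low in both groups. AREG had 2, 3 and 1 counts with the HKDC1 plasmid against 3, 5 and 8 with empty vector, EREG 3, 0 and 1 against 4, 8 and 0, and BTC 1, 0 and 0 against 2, 0 and 0. A further fall of these 3 ligands was not detectable at this depth, and none of the HKDC1 libraries held more than 3 counts of any of them.

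The test of the difference between the plasmid effects, SW480 minus COLO320DM, called 0 of 10 members without the block, where 0.00844% of genes were called, and 0 with it, where 0.0422% were called. At an unadjusted p under 0.05 without the block there were 0 members, against 1.6% of genes. HBEGF had a difference of −0.70 on the log2 scale with the block (SE 0.22, unadjusted p = 0.00748, edgeR adjusted p = 0.464). Without pair 1 of SW480 it was −0.92 and passed (edgeR adjusted p = 0.000294), where 0.575% of genes were called. The lower HBEGF of SW480 is therefore not shown to differ from COLO320DM when all libraries are used.

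Among the other pathway genes, 4 of the 17 EGFR and ERK response genes were lower with the HKDC1 plasmid in SW480 in the blocked fit, 0 were higher and 13 did not pass, in the fit in which 0.595% of all tested genes were called lower. The median log2 fold change of the 17 was −0.09, against 0.00 over all tested genes. FOSL1 had 61.1, 76.7 and 68.3 CPM with the HKDC1 plasmid, against 68.8, 106 and 103 CPM with empty vector (−0.41, SE 0.07, edgeR adjusted p = 0.000763). EGR1 had 158, 496 and 426 CPM with the HKDC1 plasmid, against 187, 627 and 569 CPM with empty vector (−0.34, SE 0.06, edgeR adjusted p = 0.00279). IER3, an immediate early gene linked to cell survival, had 193, 315 and 289 CPM with the HKDC1 plasmid, against 210, 416 and 393 CPM with empty vector (−0.32, SE 0.06, edgeR adjusted p = 0.00286). MYC had 863, 751 and 733 CPM with the HKDC1 plasmid, against 907, 936 and 914 CPM with empty vector (−0.24, SE 0.06, edgeR adjusted p = 0.0284). All 4 were lower in 3 of 3 pairs. FOSL1, EGR1 and IER3, like AREG, EREG and HBEGF, were lowest in replicate 1 of both groups, and MYC was highest there with the HKDC1 plasmid.

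All 4 values stayed below 0 under every alternative run, within −0.62 to −0.33 for FOSL1, −0.75 to −0.010 for EGR1, −0.62 to −0.18 for IER3 and −0.34 to −0.20 for MYC, but their calls did not all hold. Without the block 0 of the 17 were called, and 2 had an unadjusted p under 0.05. The block without pair 1 of SW480 called all 4, with log2 fold changes of −0.55 for FOSL1, −0.40 for EGR1, −0.44 for IER3 and −0.34 for MYC, and so did the block with limma-voom. The block with DESeq2 called FOSL1 and MYC, and gave adjusted p-values of 0.338 for EGR1 and 0.274 for IER3. Without pair 2 of SW480 the blocked values were −0.39 for FOSL1 (edgeR adjusted p = 0.120), −0.35 for EGR1 (0.132), −0.30 for IER3 (0.263) and −0.21 for MYC (0.790). Without pair 3 EGR1 passed (−0.30, edgeR adjusted p = 0.0476), and FOSL1 (−0.33, 0.0650), IER3 (−0.27, 0.0763) and MYC (−0.20, 0.214) did not. In COLO320DM 0 of the 17 were called in either fit. Of the other receptors and ligands and the lists of shedding and activation, attenuation, and adaptors and kinases, 0 were called in either line, with or without the block. At an unadjusted p under 0.05 in the blocked fit of SW480 there were 0 of 6, 4 of 9, 1 of 13 and 1 of 26 of them, against 9.96% of all tested genes. The 4 from the list of ligand shedding and activation were named after their values were seen. They were the inhibitors TIMP3 (−0.28) and SPINT1 (−0.20), RHBDF1 (−0.41), and ADAM17, the main sheddase of EGFR ligands (−0.17). Proteases and their inhibitors share this list, so no common effect on shedding can be read from it. The others were SOCS5 (0.15) and ARAF (−0.17), all on the log2 scale.

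Replicate 1 of SW480 lay apart from replicates 2 and 3 for several members in both plasmid groups, which is given as a description with no test. The CPM of replicate 1 over the mean of replicates 2 and 3 was 0.4004 with the HKDC1 plasmid and 0.250 with empty vector for AREG. It was 0.464 and 0.308 for EREG, 0.414 and 0.264 for HBEGF, and 0.665 and 0.580 for ERRFI1, in the same order of plasmids. For BTC it was 0.479 and 0.473. For TGFA it was 0.844 and 0.655 and for MET 0.926 and 0.754, closer to 1 with the HKDC1 plasmid, as for AREG, EREG, HBEGF and ERRFI1. It was above 1 for EGFR (1.53 and 1.27) and ERBB3 (1.22 and 1.33), and near 1 for ERBB2 (0.971 and 0.985). AREG, EREG, HBEGF and BTC were thus low, and EGFR and ERBB3 high, in the same libraries. KRT19, an epithelial keratin, and CDH1 (E-cadherin) were also high there. KRT19 had 626 and 676 CPM in replicate 1 with the HKDC1 plasmid and with empty vector, against 294 to 350 CPM in the other 4 libraries. CDH1 had 42.8 and 45.1 CPM, against 16.1 to 20.5 CPM. Both come from the list of 7 epithelial markers, and the others of that list are not given singly here. The 7 summed to 9138 and 9490 CPM in replicate 1, in the same order, against 6583 to 7506 CPM in the other 4 libraries. No label gives a date, passage or density for these libraries, and their part in the ligand levels was not tested.

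Likeness of pattern was measured over all 12 libraries as the root-mean-square difference of centred log2 CPM, among 17920 genes with a mean of at least 1 CPM. For HBEGF the nearest genes were UPP1 (0.154), FKBP9P1 (0.163) and BIRC3 (0.218). For TGFA they were GRB7 (0.179), ZFP36 (0.192) and SEMA3F (0.196), and for ERBB3 VIL1 (0.125), VSNL1 (0.127) and IL17RE (0.132). For AREG they were ENSG00000269495 (0.386), APOBEC3B (0.412) and SLFN5 (0.427), and for EREG CNTN1 (0.473), CXCL1 (0.531) and CCL20 (0.584). EREG, the neighbour of AREG on chromosome 4, differed from AREG by 0.928, and BTC by 2.24. These distances are descriptions, and they mostly reflect the line difference that all these genes share.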

How the data were processed

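Poly-A RNA of SW480 and COLO320DM was sequenced in 12 libraries (4 groups of 3). The authors deposited 1 table of whole-number counts for 60623 genes, of which 0 were unnamed entries and 60295 had a symbol. Per the submitters' processing notes, GRCh38, HISAT2 2.1.0 and limma were used, in roles not stated; the counter, annotation release and strand setting are not given in the sources used here. Reads of overlapping genes may therefore be shared.

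All libraries entered 1 edgeR 4.0.16 model (R 4.3.3) with 4 group means. Low genes were filtered with filterByExpr (at least 10 counts, at least 15 in total), scaling used TMM, and testing used robust quasi-likelihood F tests, which left 23684 genes and 8 residual degrees of freedom. Benjamini-Hochberg adjusted p-values over all tested genes under 0.05 were called. The SE was taken as the size of a log2 fold change over the root of its F statistic. The biological coefficient of variation was 15.7%, and 5.97% with the replicate number as a block within each line (4 residual degrees of freedom). For comparisons between the lines the block instead gave each number the same effect in both lines. Same-numbered libraries deviated together in each line (correlations of 0.40, 0.13 and 0.12 in COLO320DM and 0.72, 0.44 and 0.31 in SW480), so the numbers were taken to pair the samples. Replicate 2 of one plasmid and replicate 3 of the other were as alike (0.47 and 0.37 for SW480, 0.16 and 0.15 for COLO320DM), so the block in effect sets replicate 1 against the others, and the pairing rests on these data and not on the labels. The chi-square statistic per degree of freedom was 3.18 to 10.1 between replicates 2 and 3 and 24.5 to 82.9 between replicate 1 and either, so no library was a copy of another.

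Alternatives used DESeq2 1.42.0, limma-voom 3.58.1, RLE factors, no count filter, only the groups compared, and each library or pair left out. Tests were checked on simulated data, with an outcome that is not given here. The 10 genes, the lists and the named-gene rule were chosen with earlier results of these data known. All 10 genes are named, with pathway genes called in a plasmid contrast in either fit and, for the line contrast, up to 3 per list and direction with the largest change and at least 1 CPM, except 1 gene that is not reported here. Counting intervals and floors (3 counts) cover counting error only. Some overlapping antisense genes were counted too.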

Additional observations from a re-analysis of the deposited data

Results flagged for a closer look

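EGR1 had a plasmid effect that differed between the lines in the test of the difference with the replicate block. The log2 difference, SW480 minus COLO320DM, was −0.68 (SE 0.13, edgeR adjusted p = 0.0278, 0.0422% of genes called). EGR1 was lower with the HKDC1 plasmid in 3 of 3 pairs of SW480, with ratios of 0.842, 0.790 and 0.749, and higher in 2 of 3 pairs of COLO320DM, with ratios of 0.814, 1.54 and 1.34. Without the block the difference in EGR1 was −0.72 (edgeR adjusted p = 1.00). With the block, leaving out pair 2 or pair 3 of COLO320DM gave −0.50 (edgeR adjusted p = 0.289) and −0.63 (0.260), leaving out pair 2 of SW480 gave −0.70 (0.104), DESeq2 gave −0.65 (0.343) and limma-voom −0.70 (0.493). The difference in EGR1 still passed with the block without pair 1 of COLO320DM (−0.86, edgeR adjusted p = 0.000799), without pair 1 of SW480 (−0.74, 0.000971) and without pair 3 of SW480 (−0.65, 0.0325), and in the fit without replicate 1 of every group (−0.92, 0.000616). EGR1 held 70 to 198 counts per COLO320DM library.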

How the results depend on the processing

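The count of members called was 9 of 10 for the line difference with either plasmid under every alternative run, except with empty vector when MET also passed. That count was 10 without replicate 1 of every group, and leaving out single libraries gave 9 to 10. For the HKDC1 plasmid in SW480 the count was 0, and the replicate block gave 1, as did the block with limma-voom and the block without pair 3. The block without pair 1 gave 5, and leaving out replicate 1 of every group gave 2. Leaving out 1 library without the block gave 0. For the difference in plasmid effect the block without pair 1 of SW480 gave 1, against 0 otherwise. The block changed no other call of a member. The setting with only the groups compared does not apply to the difference in effect, which uses all groups.

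All reversals were of values within 0.351 of 0 on the log2 scale and none was called. EGFR in COLO320DM (−0.35 by edgeR) was 0.052 by limma-voom, 0.17 with the block without pair 2, and −1.28 to 0.17 over left-out libraries, and its difference in effect (0.20) was −0.21, −0.33 and −0.33 to 1.12 under the same settings. For TGFA in COLO320DM (0.01) limma-voom gave −0.013, the block without pair 3 −0.13, and left-out libraries −0.18 to 0.23. For HBEGF in COLO320DM (0.01) the block without pair 1 gave −0.040, leaving out replicate 1 of every group −0.037, and left-out libraries −0.055 to 0.052. For ERRFI1 in COLO320DM (−0.05) these gave 0.026, 0.029 and −0.13 to 0.049. MET in COLO320DM (0.05) ranged from −0.0033 to 0.12 over left-out libraries, and its line difference with the HKDC1 plasmid (0.03) from −0.043 to 0.067. ERBB3 in SW480 (0.07) was −0.0041 with the block without pair 3, and −0.035 to 0.20 over left-out libraries. The causes were not tested. SRC lost its line difference without the count filter (−1.01, edgeR adjusted p = 0.0624). Depth limits AREG, EREG and BTC in COLO320DM, where 0 to 8 counts per library cannot show a fall. With 3 libraries per group, and replicate 1 apart from the rest, the paired results in SW480 rest in effect on pairs 2 and 3.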
